A study of Mus musculus with 8 samples.

Results

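Myosin heavy chains are the motor proteins of the thick filament, and the isoform a fiber holds is the usual basis for naming its type. The 7 genes *Myh1*, *Myh2*, *Myh3*, *Myh4*, *Myh7*, *Myh7b* and *Myh8* were taken by symbol from a table of 55401 genes measured by bulk RNA-seq in the TA (tibialis anterior), a mainly fast hind limb muscle. There were 4 libraries from *mdx5cv* mice, a model of Duchenne muscular dystrophy (DMD) that carries a mutation in *Dmd*, and 4 from WT mice. The labels give C57/Bl6 as the strain and 6 mo as the age of both groups, and name no treatment. The libraries were stranded and made from total RNA. The labels do not say whether each library is a separate animal, so p-values measure the spread between these libraries. In the *mdx5cv* versus WT comparison, *Myh3* and *Myh8* were higher, *Myh2* and *Myh7b* were lower, and *Myh1*, *Myh4* and *Myh7* did not pass the test.

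Adult limb fibers use *Myh7* in slow fibers, *Myh2* in type IIA fibers, *Myh1* in type IIX fibers and *Myh4* in type IIB fibers, in order of increasing speed. *Myh3* (embryonic) and *Myh8* (neonatal) are used by developing fibers and again by fibers that regenerate after injury. *Myh7b* is an ancient slow tonic isoform that limb muscle transcribes at a low level. DMD muscle goes through repeated cycles of fiber loss and regeneration because it lacks the membrane-associated protein dystrophin.

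The values are normalized counts, that is, reads divided by a size factor for each muscle. WT muscles had 13862559 to 14921057 reads and *mdx5cv* muscles 13175524 to 14502624. *Dmd* was measured at 6954 ± 857 normalized counts in WT (SD, n = 4) and 3964 ± 388 in *mdx5cv* (SD, n = 4), with no overlap (log2 fold change -0.81, SE 0.12, adjusted p = 0.000177, limma). When the muscles were scaled to equal totals instead, the log2 fold change of the median gene shifted from 0.00 to 0.36, so small differences depend on the scaling. The totals include mitochondrial RNAs. The 7 genes together averaged 3.47% of all counts in WT and 4.16% in *mdx5cv*, but 5.33% and 5.81% of the counts of nuclear genes. Mitochondrial RNAs thus took a larger part of the totals in WT on average, and their part in the shift was not tested. All 7 genes were among the 13677 whose normalized counts averaged 10 or more, which were tested with limma on log2(normalized count + 1). On this scale the change of a gene with few counts is understated. A gene was called when its adjusted p was under 0.05 and its log2 fold change was 1 or more in either direction. By that rule 2 of the 7 members were higher in *mdx5cv*, against 10.3% of all genes tested, and 2 of the 7 were lower, against 3.27% of all genes tested. Normalized counts of the groups did not overlap for 3 of the 7 members, against 40.1% of all genes tested.

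**Figure D1:**
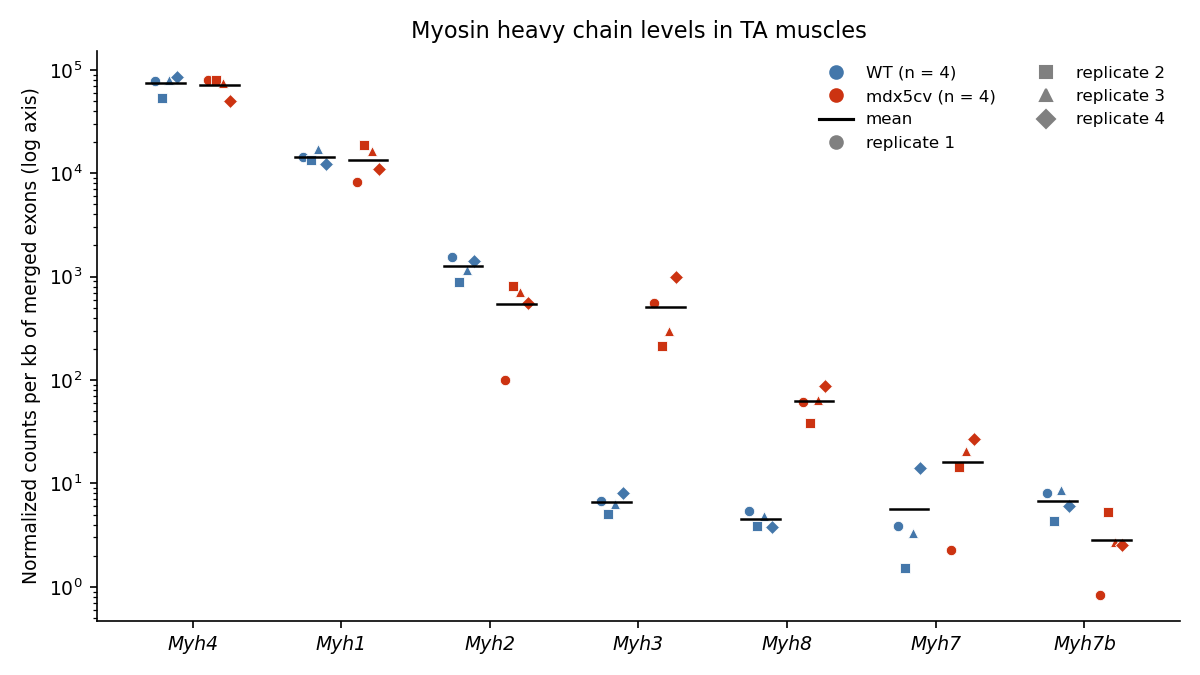
Normalized counts per kb of merged exons (log axis) of the 7 myosin heavy chain genes in 4 WT (blue) and 4 *mdx5cv* (red) TA muscles, with 1 symbol per replicate and a black line at the mean. *Myh4* lay highest in every muscle, *Myh3* and *Myh8* were higher in every *mdx5cv* muscle than in the WT muscles, and *Myh2* was lower in every *mdx5cv* muscle.

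Of the members, 5 lie in 1 cluster on chromosome 11 (chr11:67078300-67371586 of GRCm38, GENCODE M21), in the order *Myh3*, *Myh2*, *Myh1*, *Myh4*, *Myh8* on the + strand, followed by *Myh13*, the isoform of extraocular muscle. *Myh7* lies on chromosome 14 (chr14:54970684-54994626, - strand) next to *Myh6*, and *Myh7b* on chromosome 2 (chr2:155611212-155634307, + strand). The promoters of 4 members of the cluster share a run of sequence although these genes differed in response. The longest run shared by the promoter windows of *Myh2*, *Myh1*, *Myh4* and *Myh8*, taken from 250 bases before to 50 bases after the RefSeq start (GRCm38.p6), has 14 bases. It is given in capitals within 50 bases of the + strand, 5′ to 3′, because it is common to the 3 adult fast genes and to neonatal *Myh8*.
*Myh2*, chr11:67170884-67170933: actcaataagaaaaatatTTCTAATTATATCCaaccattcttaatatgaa
*Myh1*, chr11:67199924-67199973: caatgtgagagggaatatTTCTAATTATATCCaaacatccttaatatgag
*Myh4*, chr11:67237636-67237685: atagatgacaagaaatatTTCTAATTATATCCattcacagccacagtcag
*Myh8*, chr11:67277052-67277101: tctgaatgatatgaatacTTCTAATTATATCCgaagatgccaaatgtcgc
The run starts 125 bases before the start site in *Myh2*, 160 in *Myh1*, 158 in *Myh4* and 54 in *Myh8*. On either strand, it was found in 4 of 32851 mouse promoters of the same length (0.0122%), which are these 4. It was chosen as their longest common run, so this share is a description. The window of *Myh3* does not hold these letters. TATAAA was found on either strand in the windows of all 5 members of the cluster and in neither of *Myh7* and *Myh7b*, against 13.6% of all promoters. A match began 29 bases before the start site in *Myh3*, 32 in *Myh1* and 31 in *Myh4*. The only match in *Myh8* began 96 bases before it, and the only match in *Myh2* lay after it. Other patterns were searched too. CANNTG was found in *Myh3*, *Myh4*, *Myh8*, *Myh7* and *Myh7b*, against 72.3% of all promoters. A MEF2 site pattern was found in *Myh1*, *Myh4* and *Myh8*, against 3.19%, and a CArG pattern in *Myh4* only, against 1.63%. The MEF2 match in *Myh8* began 99 bases before the start site and overlaps its TATAAA. The 4 genes that share the run went from a rise in *Myh8* through no call in *Myh1* and *Myh4* to a fall in *Myh2*.

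Embryonic *Myh3* had the largest log2 fold change of the members. It was measured at 41.3, 30.7, 38.7 and 48.7 normalized counts in WT muscles 1 to 4 and at 3346, 1279, 1820 and 5957 in *mdx5cv* muscles 1 to 4. The WT values were close to one another, and every *mdx5cv* value was far above them. The log2 fold change was 6.02 (SE 0.35, 95% interval 5.25 to 6.78, adjusted p = 3.32e-07), and the mean was 77.8 times the WT mean. The *mdx5cv* muscles also differed among themselves, with the lowest value in *mdx5cv* 2 and the highest in *mdx5cv* 4. Neonatal *Myh8* was measured at 63.0, 46.1, 57.5 and 44.5 in WT and at 719, 457, 749 and 1023 in *mdx5cv* (log2 fold change 3.74, SE 0.21, adjusted p = 1.71e-07). As for *Myh3*, the groups did not overlap, and *mdx5cv* 2 was lowest and *mdx5cv* 4 highest.

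By these counts, the 2 developmental isoforms did not rise by the same factor. The log2 ratio of *Myh8* to *Myh3*, which does not depend on the size factors, was -0.35, -0.37, -0.39 and -1.09 in WT after correction for length. It was -3.18, -2.44, -2.24 and -3.50 in *mdx5cv*. The groups did not overlap, and the mean difference was -2.29 (exact permutation test, two-sided, p = 0.0286, the smallest that 4 against 4 allow). In WT the ratio rests on 42 to 55 reads of *Myh8* and 28 to 46 of *Myh3* per muscle. How many of them came from a relative was not tested. As counted, every *mdx5cv* muscle had less *Myh8* relative to *Myh3* than every WT muscle. The merged exons of *Myh8* span 11772 bases and its longest transcript 6149, so its level per kb, although not this difference, depends on the length used, and which isoform is the more abundant in WT is not resolved.

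Markers of regenerating fibers were higher too, as were most markers of macrophages and fibroblasts, while those of erythrocytes were lower. All 7 markers of regenerating fibers and myoblasts (*Myod1*, *Myog*, *Mymk*, *Mymx*, *Chrng*, *Ncam1* and *Myl4*) were higher at an adjusted p under 0.05, against 20.9% of all genes tested. Their log2 fold changes had a median of 3.37, beside 0.00 over all genes tested. Their summed normalized counts were 314 to 416 in WT and 1468 to 4096 in *mdx5cv*. *Mymx*, which encodes a peptide needed for myoblast fusion, had no reads in the WT muscles. *Mymk* and *Chrng* averaged 0.265 normalized counts each in WT. *Mymx*, *Mymk* and *Chrng* reached the mean needed for testing only through *mdx5cv*, so they could only enter as higher. The count of 7 and the median are thus partly fixed by the filter. The other markers (*Myod1*, *Myog*, *Ncam1* and *Myl4*) averaged 40.4 to 180 in WT, with log2 fold changes of 1.44 to 3.37. Among the *mdx5cv* muscles, the sum of the 7 markers was lowest in *mdx5cv* 2 and highest in *mdx5cv* 4. These were also the lowest and the highest for *Myh3* and *Myh8*. Of the macrophage markers 6 of 6 were higher and of the fibroblast markers 5 of 6, against the same share of all genes. The remaining fibroblast marker, *Dcn*, did not pass the test (log2 fold change -0.24, adjusted p = 0.425). The macrophage marker *Itgam*, with a mean of 3.88 in WT, also entered the test only through *mdx5cv*, and so only as higher. The summed macrophage markers were 364 to 593 in WT and 3540 to 8587 in *mdx5cv*, and the summed fibroblast markers 5253 to 8003 and 18162 to 34169. Both sums were highest in *mdx5cv* 4 too, but within *mdx5cv* the macrophage sum was lowest in *mdx5cv* 3 and the fibroblast sum in *mdx5cv* 2. The 3 erythrocyte markers were lower, against 20.1% of all genes tested, with sums of 600.4 to 1086 in WT and 279.7 to 609 in *mdx5cv*. With equal totals 2 of the 3 passed, against 6.00% of all genes tested. The part of these cells in the differences between the groups was not tested. In bulk muscle, fewer fibers of a type and less RNA per fiber cannot be told apart.

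The adult fast genes made up nearly all of the family. *Myh4*, the fastest isoform, was measured at 468316, 321431, 482208 and 516258 normalized counts in WT and at 478937, 475469, 449214 and 299501 in *mdx5cv*. The ranges overlapped almost fully, and the lowest value of each group was in WT 2 and *mdx5cv* 4. The log2 fold change was -0.07 (SE 0.33, 95% interval -0.78 to 0.64, adjusted p = 0.879). *Myh1* was measured at 91973, 84934, 108768 and 78710 in WT and at 52400, 118454, 103462 and 69951 in *mdx5cv* (log2 fold change -0.14, SE 0.26, 95% interval -0.70 to 0.41, adjusted p = 0.687). Its WT values lay within the range of the *mdx5cv* values, of which *mdx5cv* 1 was lowest and *mdx5cv* 2 highest. For both genes the sign of the difference turned with equal totals, to 0.29 for *Myh4* and 0.21 for *Myh1*, and no direction is given for them. Without *mdx5cv* 1 the value of *Myh1* was 0.071, and that of *Myh4* was 0.088 without *mdx5cv* 4 and 0.0042 without WT 4.

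*Myh2*, the slowest of the adult fast isoforms, was the only one of the 3 called. It was measured at 11158, 6351, 8284 and 10016 normalized counts in WT and at 714, 5751, 5016 and 3955 in *mdx5cv*. Every *mdx5cv* value was below every WT value, although WT 2 and *mdx5cv* 2 were near each other, and *mdx5cv* 1 stood far below the rest. The log2 fold change was -1.54 (SE 0.50, 95% interval -2.61 to -0.47, adjusted p = 0.0241). Without *mdx5cv* 1 it was -0.85 with an adjusted p of 0.00529, and so the fold change no longer passed the threshold. The adjusted p was 0.0681 without WT 1, 0.0542 without WT 4, 0.0515 with equal totals and 0.112 with DESeq2.

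The log2 ratio of *Myh2* to *Myh4* within a muscle, after correction for length, ranged from -6.11 to -5.64 in WT. It was -9.64, -6.62, -6.73 and -6.49 in *mdx5cv*. The groups did not overlap (mean difference -1.47, exact permutation test, two-sided, p = 0.0286). Without *mdx5cv* 1 the difference was -0.71, and the groups still did not overlap (exact permutation test, p = 0.0571, the smallest that 4 against 3 allow). The ratio of *Myh1* to *Myh4* ranged from -2.79 to -1.999 in WT and from -3.27 to -2.08 in *mdx5cv*, with a mean difference of -0.07 (exact p = 0.8286). In this ratio *mdx5cv* 1 was again the lowest of all 8 muscles.

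**Figure D2:**
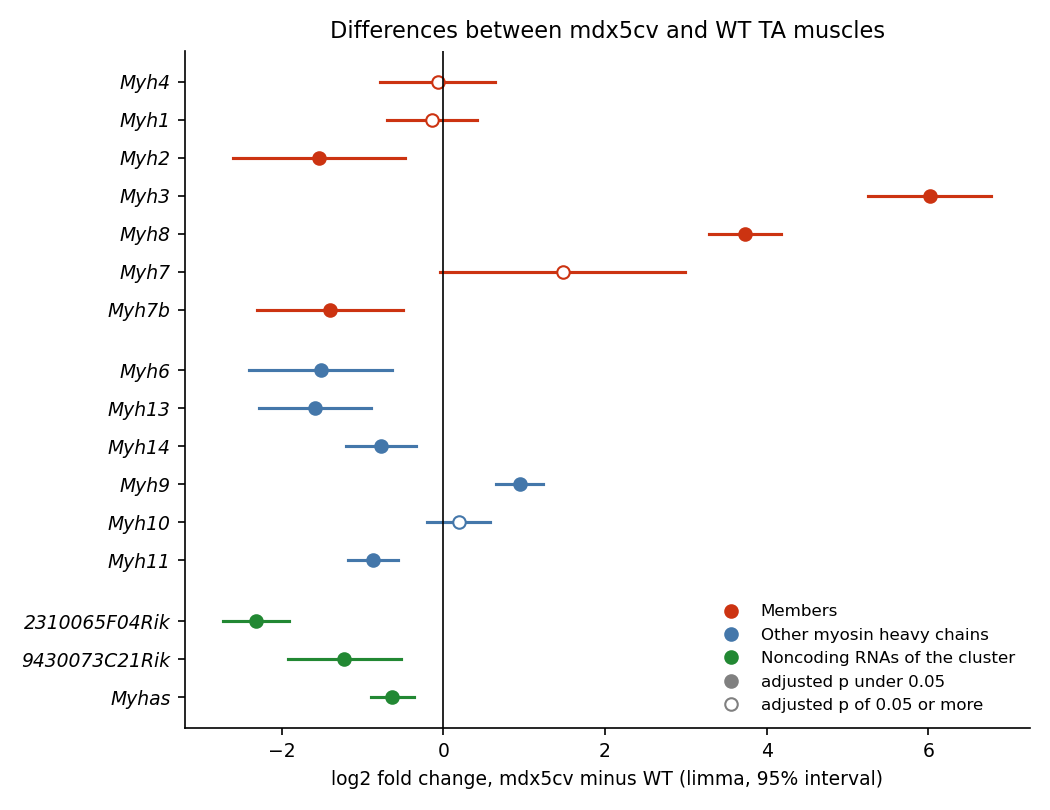
Log2 fold changes of *mdx5cv* minus WT from limma (points) with 95% intervals (lines) for the 7 members (red), the other myosin heavy chains tested (blue) and 3 noncoding RNAs of the cluster on chromosome 11 (green). Filled points had an adjusted p under 0.05, and the open points were *Myh4*, *Myh1*, *Myh7* and *Myh10*.

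Slow *Myh7*, which is also the main isoform of the adult human ventricle, was measured at 33.2, 13.2, 28.7 and 122 normalized counts in WT. In *mdx5cv* it was measured at 19.5, 125, 176 and 230.1. WT 4 was close to *mdx5cv* 2, and *mdx5cv* 1 was within the WT range, so the groups overlapped. The log2 fold change was 1.47 (SE 0.70, 95% interval -0.04 to 2.99) and did not pass the test (adjusted p = 0.111). It passed without WT 4 (2.06, adjusted p = 0.0275), without *mdx5cv* 1 (2.24, adjusted p = 0.00638) and with equal totals (1.82, adjusted p = 0.0457). The log2 ratio of *Myh7* to *Myh4* ranged from -15.09 to -12.57 in WT and from -15.11 to -10.86 in *mdx5cv* (mean difference 1.57, exact permutation test, two-sided, p = 0.229).

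*Myh7b* was measured at 53.9, 28.5, 57.5 and 40.3 normalized counts in WT and at 5.56, 34.9, 18.01 and 16.8 in *mdx5cv*. Only *mdx5cv* 2 was above the lowest WT muscle, and *mdx5cv* 1 was again the lowest of all. The log2 fold change was -1.40 (SE 0.42, 95% interval -2.31 to -0.50, adjusted p = 0.0171), from 6 to 52 reads per muscle. The adjusted p was 0.0526 without WT 1 and 0.0546 without WT 3, and the fold change was -0.95 without *mdx5cv* 1 (adjusted p = 0.0347). *Trpc4ap*, a gene on the other strand that overlaps the 3′ end of *Myh7b*, did not pass the test (log2 fold change -0.06, adjusted p = 0.684), although with equal totals it was 0.30 (adjusted p = 0.0488).

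The slow markers did not move as 1 group. Of 6 genes, 4 were higher (*Tnnt1*, *Tnni1*, *Tnnc1* and *Atp2a2*) and 1 was lower, against 20.9% and 20.1% of all genes tested at an adjusted p under 0.05. The lower gene was *Myl3*, the slow ventricular essential light chain, with a log2 fold change of -3.56 (adjusted p = 0.000326). The remaining slow marker, *Myl2*, also a light chain, did not pass the test (log2 fold change -0.98, adjusted p = 0.418). *Myl3* was measured at 229 to 459 in WT and at 4.63, 49.998, 52.2 and 47.9 in *mdx5cv*, so it was lowest in *mdx5cv* 1, as were *Myh2*, *Myh7* and *Myh7b* within their group. *Tnni1*, the slow troponin I that developing fibers also use, had the largest rise (log2 fold change 4.15, adjusted p = 7.28e-06) and was highest in *mdx5cv* 4. The fast markers had 4 of 8 genes lower (*Actn3*, *Tnnc2*, *Tnni2* and *Tnnt3*) and none higher, against the same shares of all genes, and the median of their log2 fold changes was -0.45. Their summed normalized counts were 583570 to 627223 in WT and 382189 to 579907 in *mdx5cv*, lowest in *mdx5cv* 4. With equal totals 1 fast marker was lower (*Tnni2*) and 1 higher (*Atp2a1*), against 6.00% and 39.8% of all genes tested. With any 1 of WT 1, WT 3, WT 4 and *mdx5cv* 1 left out, 2 of 8 were lower, against 16.4% to 19.2% of all genes tested. The counts of the slow markers were the same with equal totals, where 39.8% of all genes tested were higher and 6.00% lower.

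The order of the members was compared on normalized counts per kb of merged exons. In WT the mean levels ran *Myh4*, *Myh1*, *Myh2*, *Myh7b*, *Myh3*, *Myh7* and *Myh8*. The first 3 were in this order in every WT muscle, whereas the ranges of the last 4 overlapped, so their order is not resolved. In *mdx5cv* the order was *Myh4*, *Myh1*, *Myh2*, *Myh3*, *Myh8*, *Myh7* and *Myh7b*. *Myh3* was above *Myh2* in *mdx5cv* 1 and *mdx5cv* 4 and below it in the other two, so these neighbours did not differ beyond their spread. *Myh8* was the fifth, *Myh7* the sixth and *Myh7b* the last in every *mdx5cv* muscle.

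As a share of the summed family per kb, *Myh4* held 82.3% ± 3.01 in WT and 82.7% ± 4.83 in *mdx5cv* (SD, n = 4, p = 0.886, exact permutation test, two-sided). *Myh1* held 16.2% ± 3.10 and 15.9% ± 4.42 (exact p = 0.914). The share of *Myh2* was 1.66%, 1.31%, 1.18% and 1.41% in WT and 0.113%, 0.816%, 0.764% and 0.887% in *mdx5cv*, with no overlap (exact p = 0.0286). The share of *Myh3* was 0.00649% to 0.00807% in WT and 0.624%, 0.214%, 0.326% and 1.57% in *mdx5cv* (exact p = 0.0286). Its mean difference of 0.677 percentage points fell to 0.381 without *mdx5cv* 4. In *mdx5cv* muscle the embryonic transcript had thus reached the range of *Myh2*, while 98.2% to 99.7% of the family was still adult fast.

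The share of *Myh8* was 0.00379% to 0.00578% in WT and 0.0393% to 0.139% in *mdx5cv*, and that of *Myh7b* was 0.00609% to 0.00880% and 0.000946% to 0.00533% (exact p = 0.0286 for each, with no overlap). With the longest transcript as the length, the mean difference of the *Myh8* share was 0.140 percentage points in place of 0.0741. The share of *Myh7* was 0.00226% to 0.0142% in WT and 0.00255% to 0.0428% in *mdx5cv* (exact p = 0.171). These are 7 shares and 4 ratios of the same reads, and their p-values are not adjusted. Shares of 1 sum depend on one another. The summed family was 412834 to 605239 normalized counts in WT and 380634 to 601570 in *mdx5cv*, and the ranges overlapped.

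**Figure D3:**
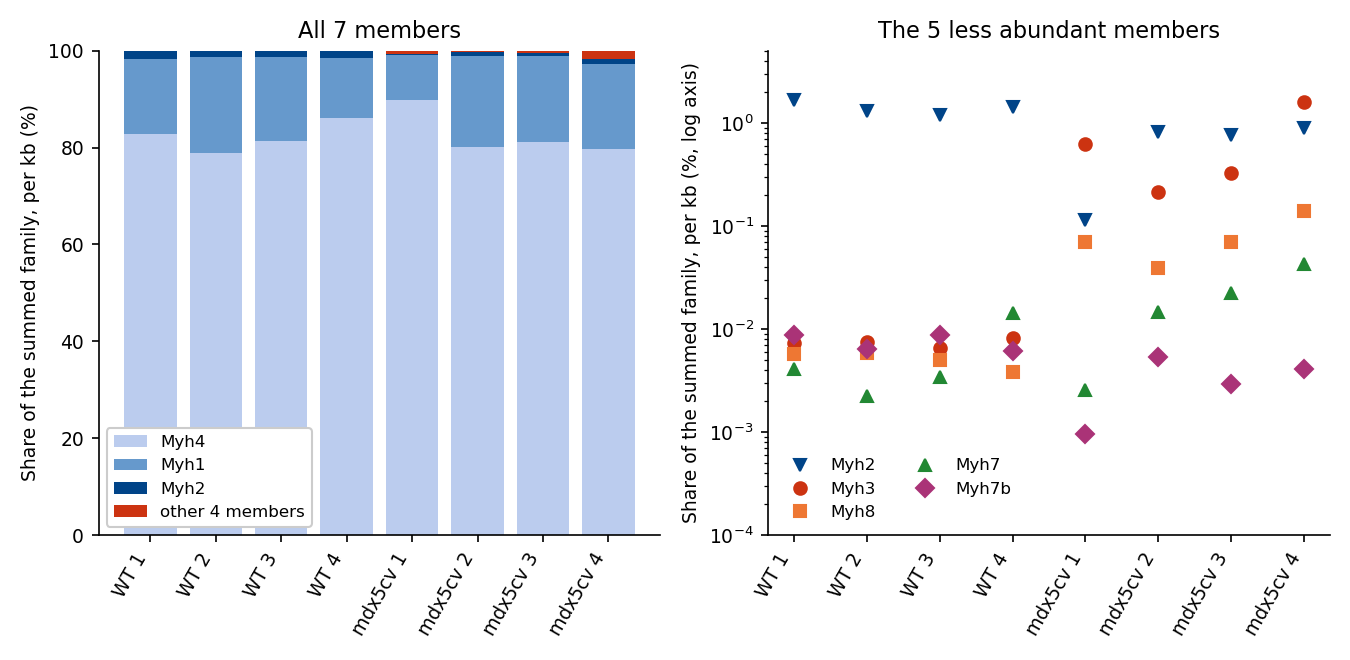
Share of the members in the summed family per kb in each TA muscle. *Myh4*, *Myh1*, *Myh2* and the remaining members together are stacked on a linear axis (left), and the 5 less abundant members are on a log axis (right). *Myh4* and *Myh1* filled most of every bar, *Myh3* and *Myh8* lay higher in each *mdx5cv* muscle than in the WT muscles, and *Myh1*, *Myh2*, *Myh7* and *Myh7b* were lowest within *mdx5cv* in *mdx5cv* 1.

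Within groups, some members varied together. Deviations of log2(normalized count + 1) from the group mean were correlated over the 8 muscles for *Myh2* and *Myh7b* (Pearson r = 0.90), *Myh1* and *Myh7b* (r = 0.89), *Myh2* and *Myh7* (r = 0.80), *Myh1* and *Myh2* (r = 0.80) and *Myh3* and *Myh8* (r = 0.77). *Myh1* and *Myh3* had r = -0.72. These are the pairs with the largest values of r, and *Myh4* had r between -0.40 and 0.19 with each other member. These values describe 8 muscles that share a library for all genes, and *mdx5cv* 1 weighs on several of them, with deviations of -2.07 for *Myh2*, -2.31 for *Myh7* and -1.36 for *Myh7b*. In the same muscle *Myh4* and *Myh3* deviated by 0.20 and 0.36. In *mdx5cv* 4 the deviations were 1.19 for *Myh3*, 1.19 for *Myh7* and -0.48 for *Myh4*.

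**Figure D4:**
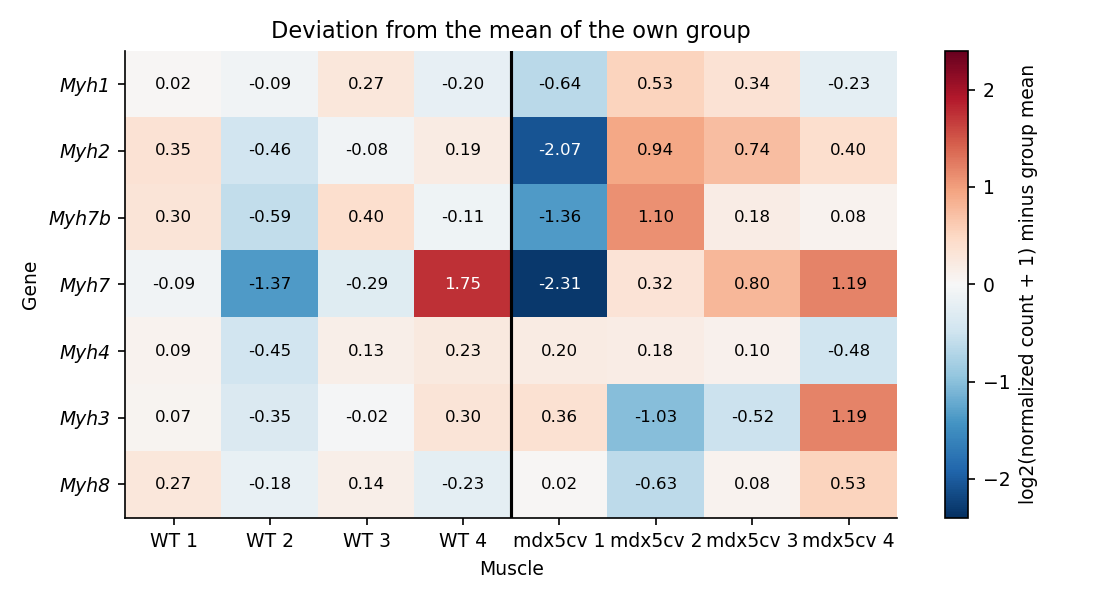
Deviation of log2(normalized count + 1) of each member from the mean of its own group (color and printed value) in the 8 TA muscles, with a line between WT and *mdx5cv*. The deepest blue cells are *Myh2* and *Myh7* in *mdx5cv* 1 (-2.07 and -2.31), and *Myh3* and *Myh7* were highest within their group in *mdx5cv* 4.

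Genes with at least 100 normalized counts on average were ranked by the correlation of such deviations with 3 of the members, over 7641 genes and 8 muscles. The 3 genes most like *Myh3* were *Map1b* (r = 0.97), *Lhfpl2* (r = 0.97) and *Dclk1* (r = 0.96). *Map1b* and *Dclk1* encode proteins that bind microtubules. *Dclk1* went from a mean of 33.8 normalized counts in WT to 954 in *mdx5cv* (log2 fold change 4.60, adjusted p = 6.44e-07). The 3 most like *Myh4* were *Ky*, *Sptb* and *Unc45b*, each at r above 0.99. *Unc45b* encodes the muscle chaperone that folds the myosin head. Those most like *Myh7* were *Prelp*, *Khdrbs1* and *Xpnpep1* (r = 0.92 each). Without the 2 muscles farthest from the median of the member, these 9 values of r were between 0.79 and 0.90. The genes were picked as the highest of 7641 on these same 8 muscles, so all these values of r are a description. How many genes would reach such values by chance was not tested.

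Noncoding RNAs lie between the genes of the cluster. The largest difference among them was in *2310065F04Rik* (chr11:67112461-67120080, - strand), a lincRNA between *Myh3* and *Myh2* that is known as *linc-Myh* and belongs to the program of fast fibers. It was measured at 1364, 876, 1472 and 1297 normalized counts in WT and at 275, 219.8, 325 and 184 in *mdx5cv*, so the groups were well apart (log2 fold change -2.32, SE 0.19, adjusted p = 2.22e-06). Its nearest coding neighbours thus went in opposite directions, with *Myh3* on one side higher and *Myh2* on the other side lower. The antisense gene *9430073C21Rik*, which overlaps the 3′ end of *Myh2*, was lower too (log2 fold change -1.23, SE 0.32, adjusted p = 0.00863), at 14.4 to 23.0 in WT and 4.63 to 9.91 in *mdx5cv*.

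*Myhas*, an antisense transcript that overlaps the 3′ part of *Myh1* and reaches to the start of *Myh4*, was measured at 404 to 427 in WT and 214 to 305 in *mdx5cv* (log2 fold change -0.63, SE 0.12, adjusted p = 0.00120). With equal totals it was -0.27 and no longer passed the test (adjusted p = 0.0874). The labels describe the libraries as reversely stranded, but whether counting used the strand is not given, so reads in the parts that *Myhas* shares with *Myh1*, and *9430073C21Rik* with *Myh2*, cannot be told apart. Of the 14 genes other than myosin heavy chains at the 3 loci, 4 averaged 10 or more normalized counts, which are the 3 above and *Trpc4ap*.

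**Figure D5:**
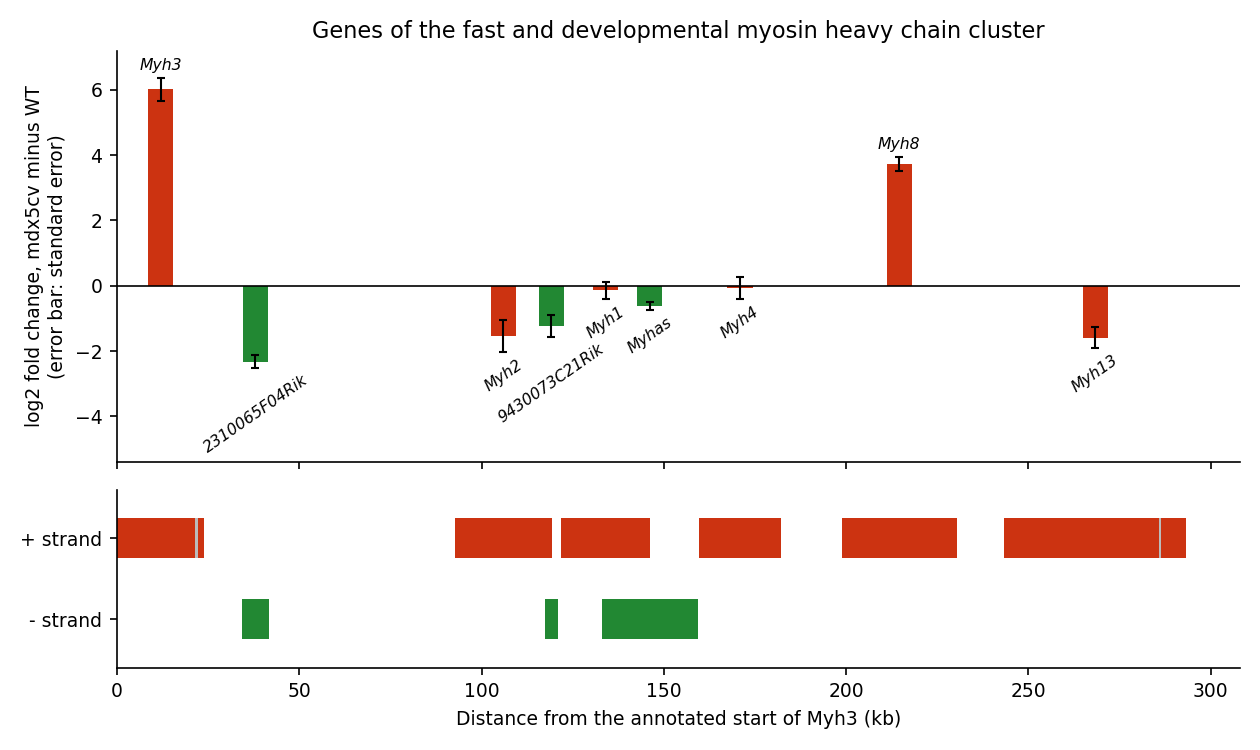
Log2 fold change (*mdx5cv* minus WT, bars with standard errors) of the genes that averaged 10 or more normalized counts in the cluster on chromosome 11 (top) and their extent on each strand (bottom), against the distance from the annotated start of *Myh3* in kb. Myosin heavy chains are red, noncoding RNAs are green and genes with fewer counts are grey, and *Myh3* and *Myh8* are the bars above 0.

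The slow loci hold miRNAs within introns of the myosin genes. They are shown because the host genes *Myh7b* and *Myh6* were lower, with the seed (bases 2 to 8) in capitals, as RefSeq gives them on GRCm38.p6.
mmu-miR-499-5p, *Myh7b*, chr2:155622893-155622913, + strand: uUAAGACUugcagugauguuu
mmu-miR-208a-3p, *Myh6*, chr14:54949072-54949093, - strand: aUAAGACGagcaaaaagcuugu
mmu-miR-208b-3p, *Myh7*, chr14:54975710-54975731, - strand: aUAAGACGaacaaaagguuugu
The seeds of miR-208a and miR-208b are the same, and that of miR-499 shares its first 6 bases. The rows *Mir499*, *Mir208a* and *Mir208b* had no reads in any muscle, which allows up to 3 reads per muscle. Libraries of this kind are not made to capture mature miRNAs, so these rows do not measure them. *Mhrt*, an antisense RNA of the *Myh6* and *Myh7* locus in heart, had no reads either.

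The other myosin heavy chains had 1 gene higher and 4 lower of 6 tested (adjusted p under 0.05), beside the 20.9% and 20.1% of all genes. Their median log2 fold change was -0.82, beside 0.00 over all genes tested. With equal totals 2 were higher, *Myh9* and *Myh10*, and 3 lower, against 39.8% and 6.00% of all genes tested. *Myh13* was measured at 105, 77.9, 73.0 and 98.5 normalized counts in WT and at 12.97, 46.2, 42.3 and 25.6 in *mdx5cv* (log2 fold change -1.59, SE 0.32, adjusted p = 0.00173). *Myh13* shares stretches of sequence with the members of the cluster, and how many of its 14 to 93 reads per muscle came from a relative was not tested. *Myh6*, the alpha-cardiac isoform, was measured at 64.2, 37.3, 58.6 and 53.0 in WT and at 5.56, 29.2, 28.8 and 19.2 in *mdx5cv* (log2 fold change -1.52, adjusted p = 0.00989). For both, the groups did not overlap and *mdx5cv* 1 was the lowest of all 8 muscles, as for *Myh2*.

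Heart markers were at or near 0, with *Nppa* at 0 in all 8 muscles, *Myl7* at 0 in 7 of them and *Mybpc3* at 0 in the WT muscles and at most 2.83 in *mdx5cv*. *Tnni3* and *Ryr2* reached at most 4.79 and 14.9 normalized counts. Of the 6 heart markers only *Tnnt2*, which immature skeletal fibers also use, was tested, and it was higher (log2 fold change 3.96, adjusted p = 3.85e-06). The cytoplasmic *Myh9* was higher by 0.94 on the log2 scale (adjusted p = 0.000131). The smooth muscle gene *Myh11* was lower (-0.87, adjusted p = 0.000379), as was *Tagln*, while the other smooth muscle marker tested, *Acta2*, was higher. *Myh14* was lower by the test (-0.77, adjusted p = 0.00785) but not with equal totals (-0.41, adjusted p = 0.0882).

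Genes that fold, assemble or turn over myosin had none of 8 higher and 1 lower, which was *Smyd1*, a methyltransferase needed for sarcomere assembly, at 4299 to 5170 normalized counts in WT and 2319 to 3559 in *mdx5cv* (log2 fold change -0.63, adjusted p = 0.00261). That is 1 of 8 lower, against 20.1% of all genes tested. The count of lower genes was 2 with TMM factors, 3 with centring on the median, 4 without WT 2 and 2 without *mdx5cv* 2. The shares of all genes lower in these settings were 20.9%, 25.4%, 18.8% and 18.3%. With equal totals *Smyd1* did not pass (-0.27, adjusted p = 0.0775). There 2 of 8 were higher, *Hsp90aa1* and *Unc45a*, against 39.8% of all genes tested. *Unc45b* had a log2 fold change of -0.34 (adjusted p = 0.0642), and *Trim63* (MuRF1), a ubiquitin ligase of thick filament proteins, of -0.37 (adjusted p = 0.0537). Among 8 partners of the thick filament, *Mybph*, a myosin-binding protein, was higher, at 92.8 to 743 in WT and 838 to 1203 in *mdx5cv* (log2 fold change 1.83, adjusted p = 0.00875). *Myom1*, an M-band protein, was lower (-0.38, adjusted p = 0.0470), but not with equal totals (-0.02), with edgeR or when any 1 muscle other than *mdx5cv* 2 was left out. The fast and slow myosin-binding proteins C, *Mybpc2* and *Mybpc1*, did not pass the test, with log2 fold changes of -0.28 and -0.06.

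Differences among the 22 regulators of fiber type were small with the size factors, and their direction depended on the scaling. With the size factors 3 were higher and 6 lower, against 20.9% and 20.1% of all genes tested, and none changed by a log2 fold change of 1 or more. With equal totals 11 were higher and none lower, against 39.8% and 6.00% of all genes tested. The higher genes under both scalings included *Prox1* (0.96, adjusted p = 0.00940) and *Vgll2* (0.52), which both favor slow genes, and *Nfatc2* (0.84). The genes lower with the size factors included *Six4*, *Eya1* and *Eya4*, whose products take part in driving fast genes, with log2 fold changes of -0.37, -0.47 and -0.37. *Sox6* (-0.56, adjusted p = 0.00392), a repressor of slow genes, and *Tbx15* (-0.48), a factor of glycolytic fibers, were lower too. *Rcan1*, a target of calcineurin signaling, was lower (-0.56). None of these 6 was lower by the test with equal totals, where their log2 fold changes ranged from -0.20 to -0.012. With the size factors *Ppargc1a*, *Mef2c* and *Nfatc1* had log2 fold changes of -0.17, 0.07 and 0.28 and did not pass the test. Without WT 4 the count of lower regulators was 4, against 19.2% of all genes tested.

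The sequences of these genes limit how well reads can be assigned. Of the 50-base stretches in the annotated transcripts of a member, the share also found in transcripts of another gene was 30.5% for *Myh1*, 24.6% for *Myh2*, 20.04% for *Myh7*, 18.9% for *Myh4*, 12.1% for *Myh8* and 4.76% for *Myh3*. *Myh7b* had none. For 100-base stretches the largest share was 14.0%, in *Myh1*, and that of *Myh3* was 1.13%. The longest run that 2 members have in common is 268 bases, between *Myh1* and *Myh2*, while *Myh4* and *Myh8* share a run of 164. How reads from such runs were counted is not given in the sources used here. In this respect alone, the levels of *Myh1*, *Myh2*, *Myh4*, *Myh7* and *Myh8* are less certain than those of *Myh3* and *Myh7b*. *Myh7b*, however, had only 6 to 52 reads per muscle. The WT level of *Myh3* per kb was 0.00797% to 0.00949% of that of *Myh4*, and how many of its 28 to 46 reads per WT muscle came from a relative was not tested. For *Myh8* the WT level was 0.00440% to 0.00732% of that of *Myh4*, from 42 to 55 reads per muscle, and their origin was not tested either.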

How the data were processed

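RNA was measured in 4 *mdx5cv* and 4 WT TA muscles. Per the labels, RNA was isolated with Trizol and made into stranded total RNA libraries. The submitters' processing notes name Trim Galore 0.6.4, STAR 2.6.0c, SAMtools 1.9, featureCounts, FastQC, MultiQC 1.6, DESeq2 1.26.0, R 3.6.2 and mm10, without roles. The values that the authors deposited are a normalized signal, in which the reads of a gene are divided by the size factor of the muscle. Whole reads were recovered for 100% of the values. At this depth, counting error is small for the abundant members and larger for *Myh7b* and for *Myh3*, *Myh7* and *Myh8* in WT.

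limma 3.58.1 in R 4.3.3 (lmFit, eBayes with a variance trend, two-sided, Benjamini-Hochberg adjustment over all genes tested) was run on log2(normalized count + 1) for genes with a mean of at least 10. The signal is not counts, so edgeR 4.0.16 (quasi-likelihood) and DESeq2 1.42.0 on recovered reads were alternatives. The limma script was tested on simulated data. Lengths and coordinates came from GENCODE M21 (55141 of 55401 IDs matched without version), and promoters and miRNAs from RefSeq tables on GRCm38.p6. Shares and ratios used counts per kb of merged exons and exact permutation tests. Other steps used Python 3.11.15 with scipy 1.17.1, numpy 2.4.6, matplotlib 3.10.9 and pandas 2.3.3.

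The members, gene lists and tests were chosen with earlier results of these data known. Named were the 7 members, the lists of other heavy chains, folding genes, thick filament partners, fiber type regulators and cell type markers, noncoding genes of the 3 loci with a mean of at least 10 and, for *Myh3*, *Myh4* and *Myh7*, the 3 genes most like each. A gene of the regulator list is not reported here. Other genes at the loci were named after their values were seen. Alternatives were other pseudocounts, filters, scalings, lengths and tools, no variance trend, the replicate block, and each muscle left out. The labels give no batch.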

Additional observations from a re-analysis of the deposited data

Results flagged for a closer look

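In groups of 4, a muscle was set apart when its gap to the nearest other muscle, divided by the range of the group, was above the 95% critical value of Dixon's test. Of 38 sets of values compared, 9 passed. Chance passes about 1 in 20, or 1.9 of 38, and shares and ratios built from the same gene are not independent.

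Of the 9, 5 concerned *mdx5cv* 1. Its share of the summed family was 9.31% for *Myh1*, against 17.6% to 18.9% in the other *mdx5cv* muscles, 0.113% for *Myh2*, against 0.764% to 0.887%, and 89.9% for *Myh4*, against 79.7% to 81.1%. Its log2 ratio of *Myh1* to *Myh4* was -3.27, against -2.20 to -2.08, and of *Myh2* to *Myh4* -9.64, against -6.73 to -6.49. The log2 normalized count of *Myh4* in *mdx5cv* 4 was 18.19, against 18.78 to 18.87.

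In WT 2 the log2 of the summed family was 18.66, against 19.12 to 19.21. In WT 4 the share of *Myh7* was 0.0142%, against 0.00226% to 0.00411%, and the log2 ratio of *Myh8* to *Myh3* was -1.09, against -0.39 to -0.35.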

How the results depend on the processing

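*Myh3* and *Myh8* stayed called under the 19 alternative fits, with log2 fold changes of 5.62 to 6.37 and 3.53 to 4.09. The count of members higher was 2 to 3 with 1 muscle left out. The count of members lower, 2, became 1 with a pseudocount of 10, a minimum of 10 in every muscle, equal totals, no variance trend or DESeq2, and 0 to 2 with 1 muscle left out (0 without WT 1 and without *mdx5cv* 1). The count of all genes called, 1861, became 2844 with no filter and 1004 with at least 10 in every muscle, where *Myh7b* was not tested, since fewer or more genes entered, and was 1595 to 1991 with 1 muscle left out. With equal totals the log2 fold changes were 0.21 for *Myh1*, 0.29 for *Myh4*, -1.18 for *Myh2* and 1.82 for *Myh7*. *Myh2* no longer passed with no variance trend (-1.54, adjusted p = 0.0687) or DESeq2 (-1.21, adjusted p = 0.112). The cause of these changes was not tested. With 1 muscle left out, the ranges were -0.32 to 0.071 for *Myh1* (0.071 without *mdx5cv* 1), -1.85 to -0.85 for *Myh2*, -0.22 to 0.088 for *Myh4* (0.0042 without WT 4 and 0.088 without *mdx5cv* 4), 1.02 to 2.24 for *Myh7* and -1.77 to -0.95 for *Myh7b*. The gene lists were also counted under other scalings and with 1 muscle left out, an alternative chosen after seeing the data. The fiber type regulators, with 3 higher and 6 lower, became 11 higher and 0 lower with equal totals, against 39.8% and 6.00% of all genes tested. Shares and ratios kept their direction and their side of the threshold under other lengths or without *Myh7b*. With 1 muscle left out the smallest possible p is 0.0571 and directions turned for *Myh1* and *Myh4* only, with differences of -1.64 to 1.82 percentage points for the *Myh1* share (higher without WT 2, WT 3 or *mdx5cv* 1), -2.05 to 1.61 for the *Myh4* share (lower without WT 2 or *mdx5cv* 1) and -0.21 to 0.21 for their log2 ratio (higher without WT 2 or *mdx5cv* 1).

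Muscles with the same replicate number did not deviate together (r of 0.05, 0.03, 0.07 and 0.15), and not every WT muscle correlated best with its own number. With the replicate block, *Myh7* had a log2 fold change of 1.47 and an adjusted p of 0.0322, and no other member's call changed.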
